A study of Homo sapiens with 4 samples.

Results

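Cholesterol and fatty acid synthesis genes were examined in 2 established human hepatocellular carcinoma lines, Huh7 and Hep3B, after exposure to ATO (arsenic trioxide). The list held 30 genes that the transcription factors SREBP-1 and SREBP-2 are known to drive, 18 enzymes of the cholesterol branch, 8 enzymes of the fatty acid branch, and 4 genes of regulation and sterol transport. Membership rests on the pathway and on no threshold of a measured value, though the list was chosen with earlier results of these data known. For each gene the reading came from the Affymetrix U133 Plus 2.0 probe set, a group of short probes for 1 transcript, that had the highest mean over the 4 profiles and named no other gene. By this rule 27 of the 30 genes were measured, of 19775 genes in all. CYP51A1 and FADS1 were named only by probe sets that list several genes, and FDFT1 was not analysed here.

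Each line gave 1 profile of cells kept in 3 μM ATO for 7 days and 1 profile of cells given DMSO alone, the negative control (NC). All 4 profiles are of total RNA, and the values are intensities on a linear scale, as the authors normalized them. With 1 profile per condition and line, a ratio of ATO over NC within a line has no error of its own, and the number of arrays limits the precision. Whether a profile is a single array or a mean of several was not stated in the sources used here. In bulk RNA, fewer cells of a type and less RNA per cell cannot be told apart.

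Cells hold SREBPs in the endoplasmic reticulum as inactive precursors bound to the escort protein SCAP. When membrane sterols run low, SCAP carries them to the Golgi, where proteases free the active factor, while INSIG proteins hold SCAP back when sterols are plentiful. SREBP-2 mainly drives the cholesterol enzymes and SREBP-1 mainly the fatty acid enzymes, and hepatocytes are among the cells with the highest activity of both branches. INSIG1 and the SREBP genes are themselves targets of the same factors.

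SREBPs act at their target promoters together with NF-Y, a factor that binds the CCAAT box. The promoters of 5 genes are shown, since 3 of them had the lowest ratios among the regulators, MSMO1 had the lowest ratio among the cholesterol enzymes in Huh7, and SREBF2 holds the stricter sterol-type match. Each run gives the 250 bases before the annotated start, 5′ to 3′ on the gene's strand, from RefSeq on GRCh38.p14. Capitals mark matches on either strand to CCAAT or to CACNCCAC, a loose form of the sterol regulatory element that includes the stricter CACCCCAC.
SREBF2, which encodes SREBP-2, chr22:41832855-41833104, plus strand: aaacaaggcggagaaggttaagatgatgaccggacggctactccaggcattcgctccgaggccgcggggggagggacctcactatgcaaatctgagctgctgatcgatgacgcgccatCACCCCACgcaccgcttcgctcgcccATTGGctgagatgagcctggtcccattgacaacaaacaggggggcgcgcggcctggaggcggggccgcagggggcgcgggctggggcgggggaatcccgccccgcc
INSIG1, chr7:155297628-155297877, plus strand: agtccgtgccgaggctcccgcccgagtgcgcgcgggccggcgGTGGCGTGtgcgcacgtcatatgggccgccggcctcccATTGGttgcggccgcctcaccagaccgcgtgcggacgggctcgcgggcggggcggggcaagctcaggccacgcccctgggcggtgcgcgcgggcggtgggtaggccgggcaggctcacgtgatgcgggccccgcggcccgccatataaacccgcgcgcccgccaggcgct
SREBF1, which encodes SREBP-1, chr17:17836987-17837236, minus strand: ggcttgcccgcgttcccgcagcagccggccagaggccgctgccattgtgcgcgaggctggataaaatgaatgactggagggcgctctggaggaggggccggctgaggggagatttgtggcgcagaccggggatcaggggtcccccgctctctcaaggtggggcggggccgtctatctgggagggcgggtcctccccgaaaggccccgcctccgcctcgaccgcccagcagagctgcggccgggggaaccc
STARD4, a cytosolic sterol carrier, chr5:111512536-111512785, minus strand: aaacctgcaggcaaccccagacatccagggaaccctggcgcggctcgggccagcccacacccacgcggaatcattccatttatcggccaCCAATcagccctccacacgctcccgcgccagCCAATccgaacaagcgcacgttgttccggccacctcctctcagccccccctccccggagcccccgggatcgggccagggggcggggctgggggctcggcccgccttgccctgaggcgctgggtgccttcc
MSMO1, a sterol demethylase subunit, chr4:165327419-165327668, plus strand: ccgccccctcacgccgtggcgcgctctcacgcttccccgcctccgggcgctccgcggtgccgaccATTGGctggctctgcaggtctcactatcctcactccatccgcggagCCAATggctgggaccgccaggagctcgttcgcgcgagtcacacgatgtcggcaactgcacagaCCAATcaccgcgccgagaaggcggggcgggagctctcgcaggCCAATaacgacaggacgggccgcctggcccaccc

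Of the 27 measured genes, 24 had a window in the RefSeq table, 33 windows in all, each from 250 bases before to 50 after a start. CCAAT was present in 25 of these windows, 75.8%, compared with 34.6% of the 35116 windows of all genes. At the level of genes, 21 of 24 held it, and ELOVL6, PMVK and SREBF1 did not. MSMO1 held 4 copies and STARD4 2 copies in the runs above, whereas the run of SREBF1 had no match to any of the patterns. For SREBF1 only the start shown was searched, and any other start of the gene was not. CACNCCAC was present in 21.2% of the windows of these genes and in 5.87% of all windows, in ACACA, IDI1, INSIG1, SC5D, SCD and SREBF2. The stricter CACCCCAC was found in SREBF2 alone among them, at 3.03% of their windows against 2.79% of all windows. Some genes have several windows that overlap, such as ACLY. A match is a run of letters and not a measured binding site.

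All 27 measured genes had a lower intensity with ATO than in the negative control in Huh7, with ratios from 0.353 for INSIG1 to 0.886 for FADS2. In Hep3B, 20 of the 27 were lower and 7 were higher, with ratios from 0.574 for SCD5 to 1.24 for FADS2. Over all genes, 48.8% had a ratio below 1 in Huh7 and 43.7% in Hep3B, and 24.7% were below 1 in both lines, as 20 of the 27 were. The 7 others lay on opposite sides of 1 in the 2 lines, as 42.9% of all genes did. All 27 had a mean intensity no lower than that of the median probe set, 17.3, and among genes that bright the shares below 1 were 49.6% in Huh7 and 43.7% in Hep3B. For the 27 genes, the log2 ratio had a median of -0.60 in Huh7 and -0.21 in Hep3B, beside 0.01 and 0.04 over all genes.

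**Figure D1:**
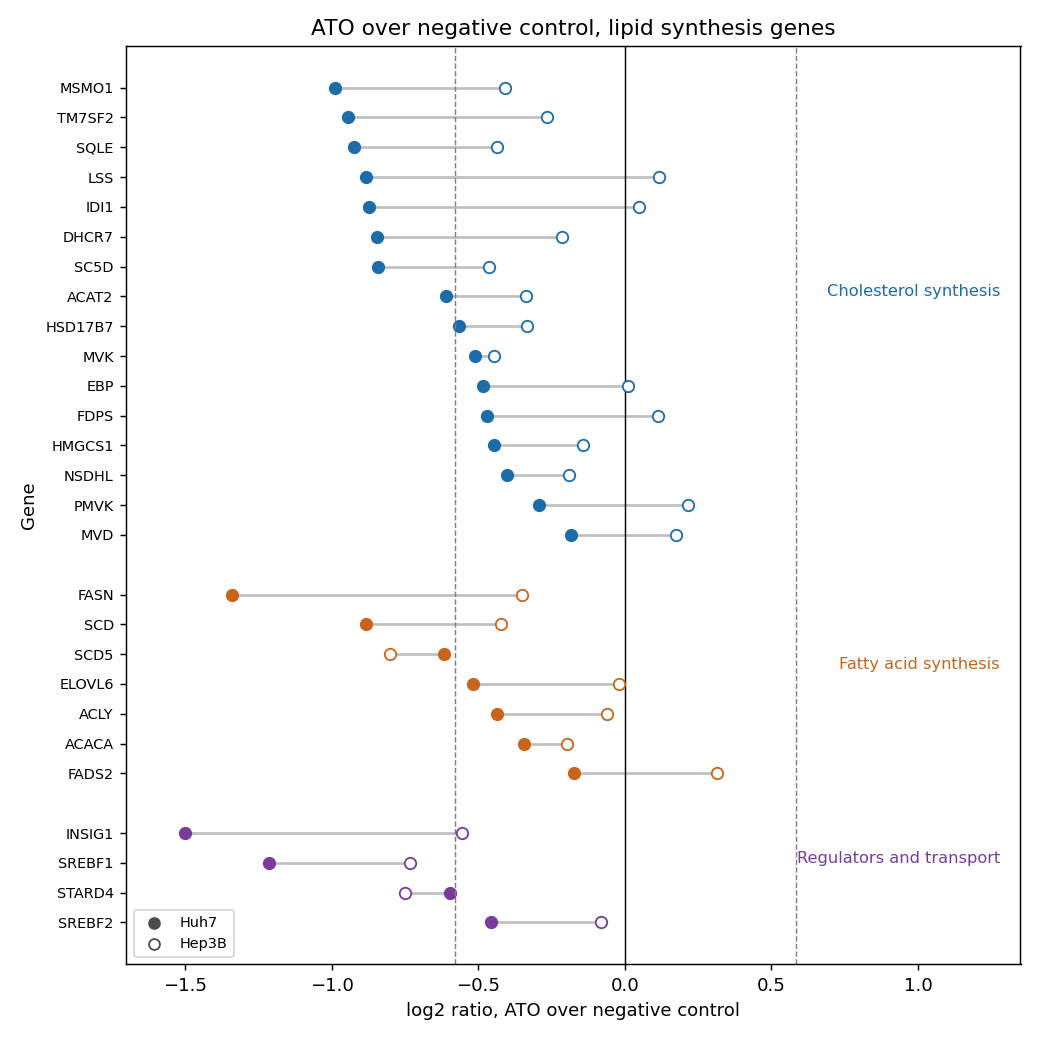
Log2 ratio of ATO over negative control (x axis) for each of the 27 measured genes (y axis), with filled points for Huh7 and open points for Hep3B, 1 profile per condition and line. Dashed lines mark ratios of 0.67 and 1.5. All filled points lie below 0, from INSIG1 at -1.50 to FADS2 at -0.17, and 25 of the 27 lie to the left of the open point of the same gene.

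Past the ratio of 0.67 that the study used for lower genes, 14 of the 27 were counted in Huh7, where 3.25% of all genes and 4.16% of the genes that bright were past it. In Hep3B 3 of the 27 were past it, beside 4.02% of all genes and 5.45% of the brighter ones. The 3 genes were SREBF1, STARD4 and SCD5, and they were also the genes below 0.67 in both lines, where 0.587% of all genes lay. For SCD5 this depended on the probe set, as another one had 1.44 in Huh7 and 1.23 in Hep3B. By its brightest probe set, no gene of the list was above the ratio of 1.5 in Huh7 or in Hep3B, where 3.21% and 5.04% of all genes were. The thresholds divided close values, as STARD4 at 0.661 was just inside and HSD17B7 at 0.676 just outside in Huh7. In Hep3B SREBF1 at 0.601 was inside and INSIG1 at 0.680 outside.

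The regulators and the sterol carrier had the lowest median ratio of the 3 groups, 0.534 in Huh7 and 0.640 in Hep3B. INSIG1, the membrane protein that retains SCAP and SREBP when sterols are plentiful, had an intensity of 290.0 in the negative control and 102 with ATO in Huh7, and of 299.5 and 204 in Hep3B. Its NC profiles were close in the 2 lines, and the ATO profile of Huh7 was the lowest of the 4. The ratios were 0.353 and 0.680, which average -1.03 ± 0.67 on the log2 scale (SD, n = 2 lines). SREBF1 had an intensity of 138 in NC and 59.5 with ATO in Huh7, and of 309 and 186 in Hep3B. Its ATO values were below the NC value of the same line in both, with ratios of 0.431 and 0.601, which average -0.97 ± 0.34 on the log2 scale (SD, n = 2 lines). STARD4, which moves cholesterol between membranes, had an intensity of 99.1 in NC and 65.6 with ATO in Huh7, and of 145 and 85.9 in Hep3B. It had ratios of 0.661 and 0.594, which makes it, with SCD5, 1 of the 2 genes whose ratio was lower in Hep3B than in Huh7. SREBF2 was nearer the negative control, with 126 and 92.1 in Huh7 and 171 and 162 in Hep3B, ratios of 0.729 and 0.945. This contrast with SREBF1 rests on the brightest probe set of each gene. The dimmer SREBF1 probe set had 0.723 in Huh7 and 0.698 in Hep3B. The next SREBF2 probe set had 0.684 and 0.727, and the dimmest 0.848 and 0.812.

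**Figure D2:**
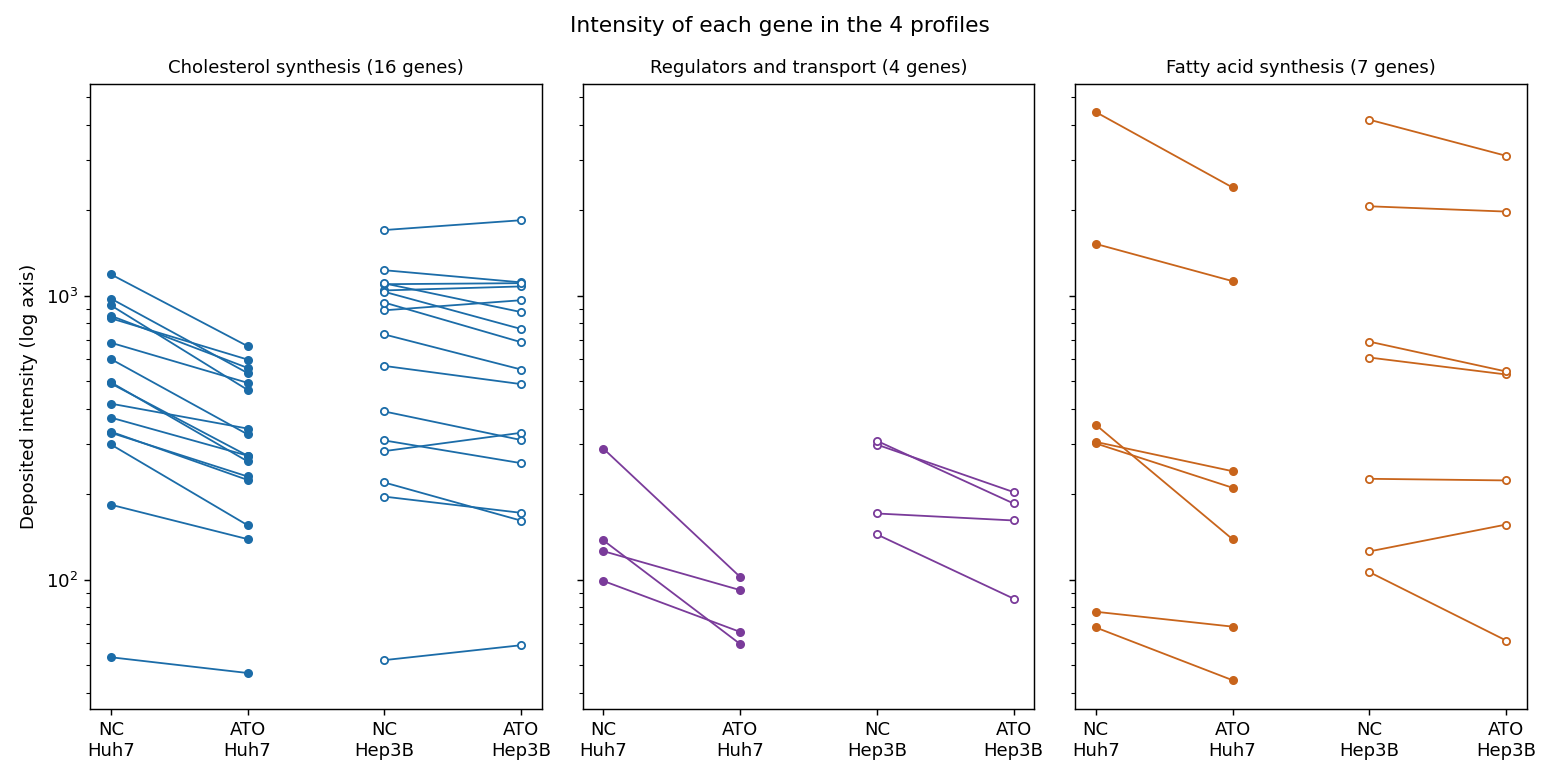
Deposited intensity on a log axis (y axis) of each gene in the negative control (NC) and the ATO profile of Huh7 (filled points) and Hep3B (open points), with lines joining the 2 profiles of a line. The 3 panels hold 16 cholesterol enzymes, 4 genes of regulation and transport and 7 fatty acid enzymes; every line of Huh7 slopes down, whereas 7 lines of Hep3B slope up.

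Of the fatty acid branch, FASN and SCD showed the lowest ratios in Huh7. FASN, the synthase that builds palmitate, had an intensity of 352 in NC and 139 with ATO in Huh7, and of 690.2 and 542 in Hep3B. Its ratios were 0.395 and 0.785. SCD, the desaturase that makes oleate, had an intensity of 4442 in NC and 2410 with ATO in Huh7, and of 4175 and 3116 in Hep3B. Starting from similar NC values in both lines, its ratios were 0.542 and 0.746. SCD5, a second stearoyl-CoA desaturase, had an intensity of 68.0 in NC and 44.3 with ATO in Huh7, and of 107 and 61.1 in Hep3B, with ratios of 0.652 and 0.574. This reading depended on the probe set, as the next brightest SCD5 probe set had 1.44 in Huh7 and, from values below the median probe set, 1.23 in Hep3B.

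The remaining fatty acid enzymes were nearer to the negative control. ELOVL6, which elongates palmitate, stood at 0.698 in Huh7 and 0.987 in Hep3B. ACLY, which makes cytosolic acetyl-CoA from citrate, had an intensity of 1525 in NC and 1127 with ATO in Huh7, a ratio of 0.739, and of 2069 and 1982 in Hep3B, a ratio of 0.958. ACACA, the carboxylase of the committed step, had ratios of 0.788 and 0.872. FADS2, the delta-6 desaturase, was the gene nearest to the negative control in Huh7 at 0.886, and it was the highest of the list in Hep3B at 1.24.

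In the cholesterol branch, the enzymes from squalene on had lower ratios than those that make the isoprenoid precursors, a division of the pathway chosen after the values were seen. For the 9 measured enzymes from SQLE to DHCR7 the median ratio was 0.557 in Huh7 and 0.832 in Hep3B. For the 7 from ACAT2 and HMGCS1 to FDPS it was 0.722 and 1.03. In Huh7 6 of the 9 and 2 of the 7 were below 0.67, and in Hep3B none of either. Over all genes the shares were 3.25% and 4.02%. MSMO1 had an intensity of 927 in NC and 467 with ATO in Huh7, and of 732 and 551 in Hep3B, with ratios of 0.504 and 0.753. SQLE, the squalene epoxidase that commits squalene to sterols, had 496 and 261 in Huh7 and 1034 and 765 in Hep3B, ratios of 0.527 and 0.740. SC5D, a sterol desaturase, had 1192 and 665 in Huh7 and 948 and 687 in Hep3B, ratios of 0.558 and 0.725. These 3 enzymes were below the NC value of their line in both lines.

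TM7SF2, a sterol reductase, stood at 0.520 in Huh7 and 0.832 in Hep3B, and DHCR7, the reductase of the last step, 0.557 and 0.863. LSS, which closes the sterol rings, had an intensity of 599 in NC and 325 with ATO in Huh7 but of 889.9 and 966 in Hep3B, so that its ratios of 0.543 and 1.09 lay on either side of 1. HSD17B7, a ketosteroid reductase whose probe set ends in _x_at and so may also pick up similar transcripts, had ratios of 0.676 and 0.793. NSDHL, a demethylating dehydrogenase, had 0.757 and 0.877, and EBP, a sterol isomerase, 0.716 and 1.01.

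Among the earlier enzymes, IDI1, the isomerase that yields dimethylallyl diphosphate, had an intensity of 979 in NC and 535 with ATO in Huh7, and of 1045 and 1080 in Hep3B. Its ratios were 0.547 and 1.03, also from a probe set ending in _x_at. MVK, mevalonate kinase, had 330 and 231 in Huh7 and 220 and 162 in Hep3B. Its ratios of 0.701 and 0.734 were the most alike of the list between the lines. ACAT2, which joins acetyl-CoA units, had ratios of 0.655 and 0.792. HMGCS1, the synthase that makes HMG-CoA, had 373 and 274 in Huh7 and 1232 and 1116 in Hep3B, ratios of 0.734 and 0.906. FDPS, which makes farnesyl diphosphate, had 0.722 and 1.08. The kinase PMVK, at 0.817 and 1.16, and the decarboxylase MVD, at 0.880 and 1.13, were the enzymes of this branch with the highest ratios in Huh7.

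Set against each other, the cholesterol and the fatty acid branch had close medians with the brightest probe set of each gene. The median log2 ratio was -0.59 for the 16 cholesterol enzymes and -0.52 for the 7 fatty acid enzymes in Huh7, a difference of -0.07. In Hep3B it was -0.20 for both, a difference of -0.0031. Below 0.67 in Huh7 were 8 of the 16 and 3 of the 7, beside 3.25% of all genes. In Hep3B none of the 16 and 1 of the 7 were, beside 4.02% of all genes. The spread within a branch was wider than the difference between the branches, with ratios in Huh7 from 0.504 to 0.880 for the cholesterol enzymes and from 0.395 to 0.886 for the fatty acid enzymes. For the 4 genes of regulation and transport the medians were -0.90 and -0.64. When all probe sets of a gene were averaged, the median of the fatty acid enzymes in Hep3B was 0.011, on the other side of 0, and the difference between the branches was -0.18 there. With the median over probe sets that difference was -0.21. No test of the branch difference was run, since genes are not replicates and each line had 1 pair of profiles.

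**Figure D3:**
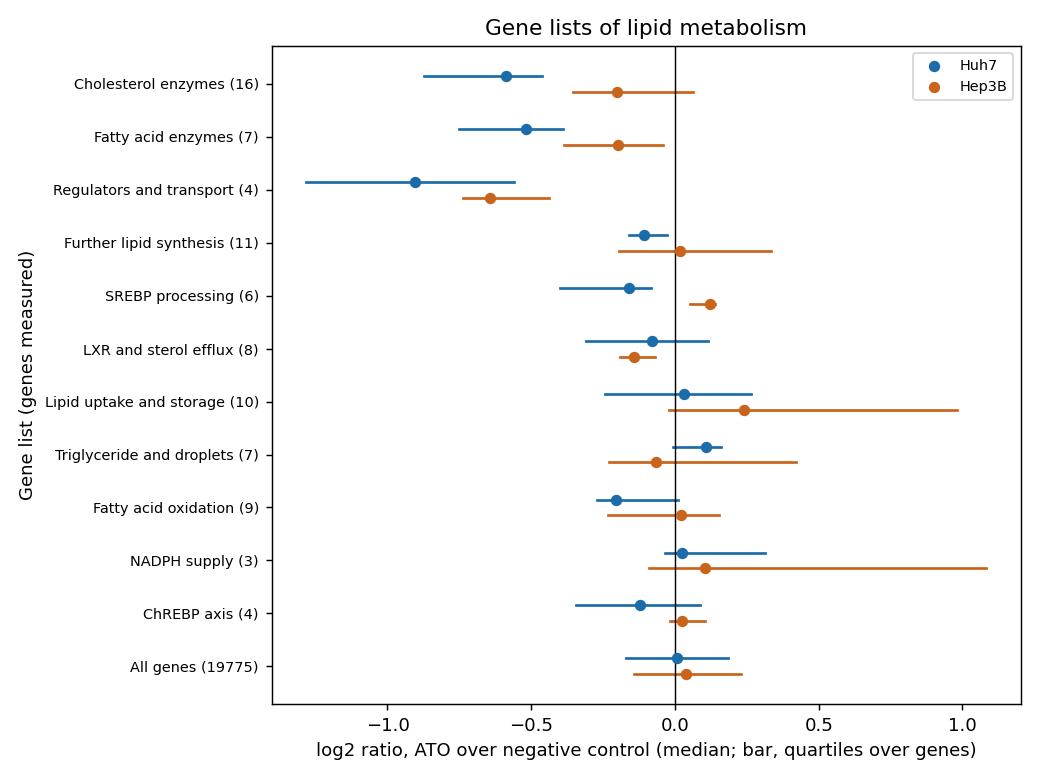
Median log2 ratio of ATO over negative control (x axis, points) with the quartiles over genes (bars) for the 3 groups of lipid synthesis genes, 8 further gene lists of lipid metabolism and all genes (y axis, number measured in parentheses), in Huh7 (blue) and Hep3B (orange). The 3 upper groups have medians between -0.90 and -0.52 in Huh7, whereas all genes have 0.01.

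The 2 lines were then taken as the replicates of the comparison, with limma fitted to log2(intensity + 16) over all genes and the cell line in the model. No gene of the list had an adjusted p under 0.05 from limma, nor had any gene of the table (0.0%), with 0.506 as the lowest value. By the unadjusted p of limma, at 0.05, 12 of the 27 genes were lower with ATO and none higher, and over all genes 4.3% were lower and 5.24% higher. The 12 were 6 cholesterol enzymes (ACAT2, HSD17B7, MSMO1, MVK, SC5D and SQLE), 3 fatty acid enzymes (ACACA, SCD and SCD5) and INSIG1, SREBF1 and STARD4. With all probe sets of a gene averaged, 8 of these 12 remained, without ACACA, INSIG1, SCD and SCD5, and the limma log2 change of SCD5 was -0.035 against -0.57. With limma, SREBF1 had a log2 change of -0.86 ± 0.12 (SE moderated by limma, 2 lines) and an adjusted p of 0.506. Over the alternatives its adjusted p from limma ran from 0.199 to 1.0. With limma, INSIG1 had -0.95 ± 0.26 (SE moderated by limma, 2 lines) and an adjusted p of 0.509, with a range from 0.295 to 1.0. The fit leaves 1 residual degree of freedom. To the spread between these 2 lines limma adds a variance drawn from all genes, with 1.81 prior degrees of freedom. The moderated SE and the p of a gene therefore mix both, and do not measure the spread between the lines alone.

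For 25 of the 27 genes the log2 ratio was lower in Huh7 than in Hep3B, including all 16 cholesterol enzymes, where 53.7% of all genes were. The median difference, Huh7 minus Hep3B, was -0.48 over the list and -0.03 over all genes. It was widest for LSS, at -0.999, for FASN, at -0.99, for INSIG1, at -0.95, and for IDI1, at -0.92. With 1 pair of profiles per line, the difference between the lines could not be tested. In the negative controls most of these genes were already dimmer in Huh7 than in Hep3B, 20 of the 27, with a median ratio of Huh7 over Hep3B of 0.769, where 45.7% of all genes were, with a median of 1.03. Of the 27, 8 were below 0.67, where 15.5% of all genes lay, and none was above 1.5, where 16.9% lay. HMGCS1 had the lowest such ratio at 0.303, followed by FDPS at 0.401, SREBF1 at 0.446 and SQLE at 0.480. MVK had the highest, from NC intensities of 330 in Huh7 and 220 in Hep3B, just under the threshold of 1.5. With ATO, 25 of the 27 were dimmer in Huh7, with a median ratio of 0.569, where 47.1% of all genes were, with a median of 1.02. The NC profiles enter both this ratio and the ratios of ATO over NC, so these are not independent measures.

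Most genes with several probe sets gave the same direction in Huh7 and a more divided picture in Hep3B. The 27 genes had 59 probe sets no dimmer than the median one, of which 54 were below 1 in Huh7 and 37 in Hep3B. Over all probe sets that bright and naming 1 gene, the shares were 48.8% and 45.9%. Leaving aside the brightest probe set of each gene, 32 remained in 17 genes, with 27 below 1 in Huh7 and 17 in Hep3B and median log2 ratios of -0.37 and -0.03. All 3 probe sets of INSIG1, all 4 of SCD, all 4 of SQLE and both of SREBF1 were below 1 in both lines. The dimmer FASN probe set, which ends in _x_at, was above 1 in both lines, at 1.14 and 1.29, unlike the brighter probe set. In Hep3B the dimmer HMGCS1 probe set had 1.66, against 0.906 for the brighter one. The dimmer LSS probe sets had 1.56 and 1.68 there, against 1.09 for the brightest. In Huh7 these dimmer probe sets had 0.596 for HMGCS1 and 0.663 and 0.695 for LSS.

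**Figure D4:**
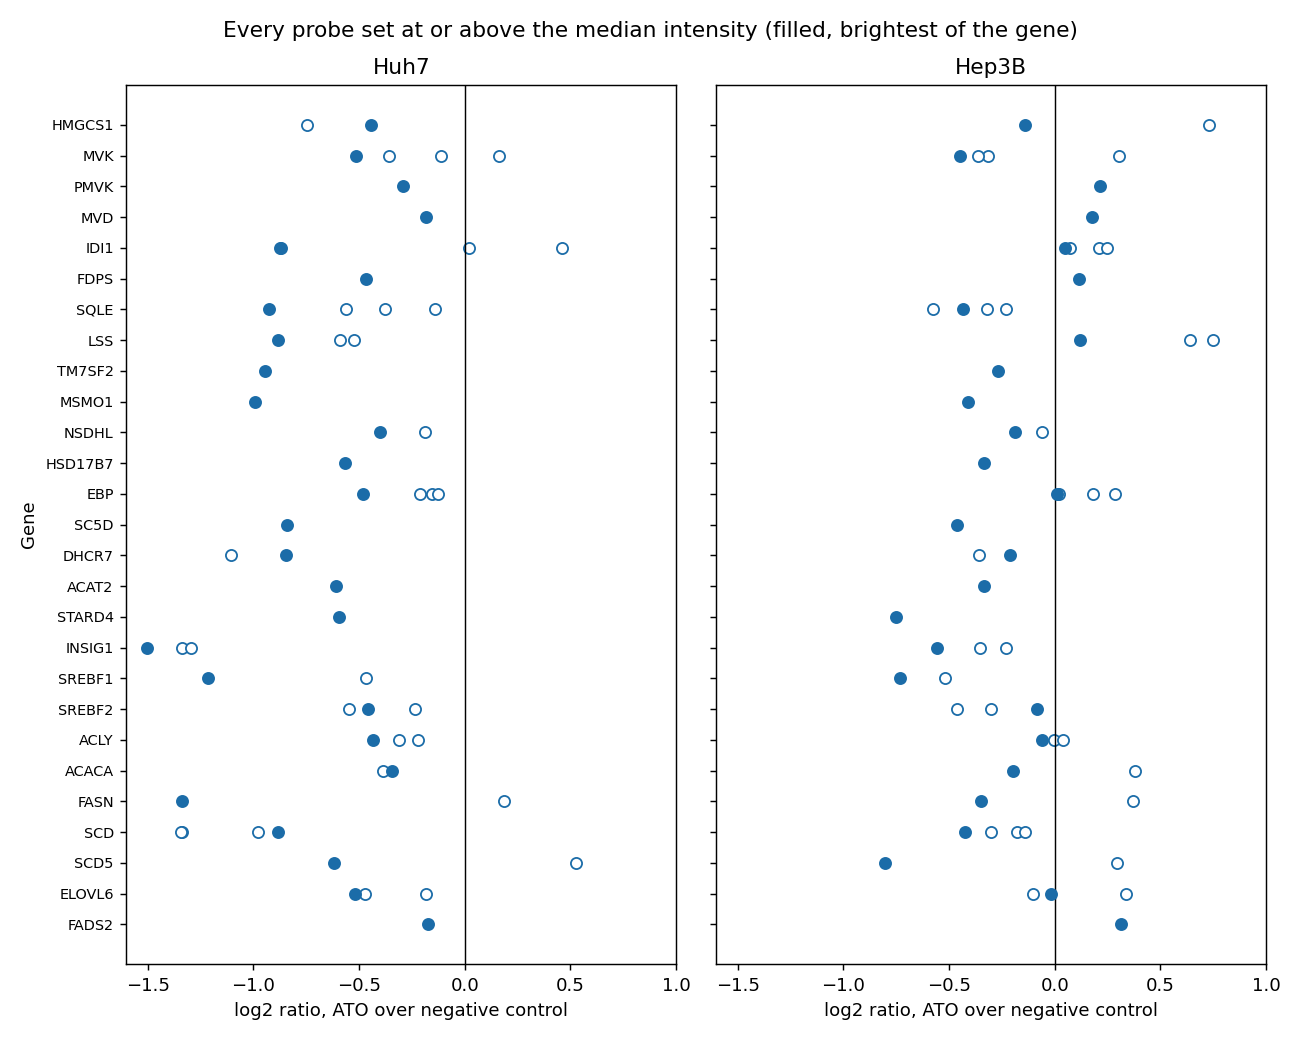
Log2 ratio of ATO over negative control (x axis) in Huh7 (left) and Hep3B (right) for each probe set at or above the median intensity, by gene (y axis), with the brightest probe set of a gene filled. In Huh7 54 of the 59 points lie below 0 and in Hep3B 37 of the 59.

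Other genes of lipid metabolism came from 8 lists of general pathway knowledge. In Huh7 each list had a median nearer to the negative control than the lipid synthesis groups, whereas in Hep3B the list of uptake and storage lay further from it than both enzyme branches, on the higher side. Of 11 further lipid synthesis genes none was below 0.67 in Huh7, beside 3.25% of all genes, with a median log2 ratio of -0.11. In Hep3B 2 were below and 2 above the thresholds, beside 4.02% and 5.04% of all genes, with a median of 0.02. ACSL4, which activates arachidonate, had ratios of 0.939 and 0.292, and ACSL1, which activates long-chain fatty acids, 1.05 and 2.62. Of the 6 genes that process SREBP, the median log2 ratios were -0.16 and 0.12. INSIG2, the second retention protein, had an intensity of 470.3 in NC and 276 with ATO in Huh7 and of 301 and 325 in Hep3B, ratios of 0.586 and 1.08. ERLIN2, a membrane protein that assists in sterol-regulated degradation, had 0.724 and 0.877. Targets and partners of the liver X receptor, which answers to oxysterols, had medians of -0.08 and -0.14 over 8 genes. Of these, ABCG1, ABCG5 and ABCG8 lay below the median probe set in all 4 profiles, and their Huh7 ratios of 1.17, 1.16 and 1.06 enter that median. In Huh7 4 of the 8 were below 1, beside 48.8% of all genes, and all 4 were brighter than the median probe set. ABCA1, the cholesterol exporter, had ratios of 0.758 and 0.774, and MYLIP, a ligase that removes lipoprotein receptors, 0.693 and 0.902.

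Among 10 genes of lipid uptake and sterol storage none was past 0.67 in either line, beside 3.25% of all genes in Huh7 and 4.02% in Hep3B. In Hep3B 4 were above 1.5, beside 5.04% of all genes. The median log2 ratios were 0.03 in Huh7 and 0.24 in Hep3B. VLDLR, a lipoprotein receptor, had ratios of 1.21 and 2.60. CD36, a fatty acid transporter, was 18.4 in NC and 76.1 with ATO in Hep3B, a ratio of 4.15, and its Huh7 values lay under that of the median probe set. The 7 genes of triglyceride synthesis and droplets had medians of 0.11 and -0.07, with GPAM, which starts glycerolipid synthesis, at 1.23 and 1.31 and the acyltransferase DGAT2 at 1.10 and 1.37. Of 9 fatty acid oxidation genes, with medians of -0.21 and 0.02, ACADM, the medium-chain dehydrogenase, had 0.639 and 0.716, and EHHADH, a peroxisomal enzyme, had 0.693 and 0.850. Of 3 NADPH-supplying genes, ME1, malic enzyme, was the only gene of these 8 lists past a threshold in both lines, at 1.52 and 4.18, while IDH1, which makes NADPH in the cytosol, had 0.938 and 0.819. Of the 4 genes around ChREBP, the glucose-sensing factor of lipogenesis, TXNIP had 0.645, from dim values, and 1.04, and PKLR, a liver pyruvate kinase, had 1.25 and 0.995. By limma, no gene of these lists had an adjusted p under 0.05, and 4 were lower and 2 were higher at an unadjusted p under 0.05. Over all genes 4.3% were lower and 5.24% higher by that limma p.

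The labelled cell type was checked against liver markers. Of 9 markers of the hepatocyte lineage 8 were measured, all above the median probe set in mean, with a summed intensity of 25782 in NC and 22204 with ATO in Huh7 and of 50665 and 37301 in Hep3B. The sum was lower with ATO in both lines, and it rests mostly on the brightest probe sets, such as those of SERPINA1 and TF. Of the 8 markers 7 were below 1 in Huh7, all but ALB, and 6 in Hep3B, beside 48.8% and 43.7% of all genes. In Hep3B FGB, a fibrinogen chain, had 2.82 and TTR, a thyroid hormone carrier, 1.16. On the log2 scale the markers centred on -0.26 in Huh7, against -0.60 for the 27 lipid synthesis genes. For Hep3B the order was reversed, with -0.45 for the markers and -0.21 for the lipid genes. There 3 of the 8 markers and 3 of the 27 genes were below 0.67, beside 4.02% of all genes. By limma, AFP, SERPINA1 and TF were lower at an unadjusted p under 0.05, and no marker had an adjusted p under 0.05. The part of these markers in the result was not tested. ALB, the main plasma protein of hepatocytes, was far dimmer in Huh7, at 155 in NC and 358 with ATO, than in Hep3B, at 12803 and 10730. AFP and TTR were also dim in NC of Huh7, at 91.8 and 48.1, against 3566.5 and 1704 in NC of Hep3B. In NC 6 of the 8 markers were dimmer in Huh7, where 45.7% of all genes were. The 2 leukocyte markers measured, PTPRC and CD3E, were below the median probe set. Of 3 endothelial and 4 fibroblast markers, PECAM1, COL1A1 and PDGFRB were above it, and their summed intensities ranged from 30.8 to 34.6 and from 115 to 131 over the 4 profiles. The poly-A controls, RNAs spiked in ahead of labeling, had median log2 ratios of -0.28 for Huh7 and -0.27 for Hep3B, while hybridization controls had 0.07 and 0.10. In Hep3B the poly-A value was further below 0 than the medians of both enzyme branches, and its part in the result was not tested. The 3′ to 5′ differences of GAPDH and ACTB changed by at most 0.07 (log2).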

How the data were processed

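Total RNA of the 4 profiles was hybridized to Affymetrix U133 Plus 2.0 arrays. The authors applied the Robust Multi-array Average, a log transformation and a normalization in simpleaffy, per the methods. The deposited intensity values are linear, with medians between 15.8 and 16.3. The return from the log scale was not given in the sources used here. Of 54675 probe sets, 41097 had 1 gene symbol, 1801 several and 11777 none in the platform annotation. All 30 listed symbols are current in RefSeq.

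Ratios were taken from the deposited intensities, without offset. limma 3.58.1 in R 4.3.3 was fitted to log2(intensity + 16) over 19775 genes with cell line and treatment, using the Benjamini-Hochberg adjustment across the whole table. The limma fit and the ratio thresholds were run on simulated data with known changes, and the other steps were not simulated. The number of arrays limits the precision. Promoter windows came from RefSeq. A dim gene lies below 17.3, the median probe set mean. The genes, lists and thresholds were chosen with earlier results of these data known. All listed genes are named, and of each further list the genes past 1.5 or 0.67 in both lines and the 2 with the largest mean log2 ratio in size. The dim genes of the liver X receptor list are named as well. Alternatives covered probe set choice, scaling, offsets, thresholds, priors and a line left out. Tables were made with Python 3.11.15, pandas 2.3.3 and matplotlib 3.10.9.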

Additional observations from a re-analysis of the deposited data

Results flagged for a closer look

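Of the 27 genes, 7 had ratios on opposite sides of 1 in the 2 lines, below in Huh7 and above in Hep3B, beside 42.9% of all genes with opposite directions. The log2 ratio in Huh7 minus that in Hep3B was -0.999 for LSS, -0.92 for IDI1, -0.58 for FDPS, -0.51 for PMVK, -0.49 for EBP, -0.49 for FADS2 and -0.36 for MVD. Each line had 1 pair of profiles, so the difference between the lines was not tested for any of them. In Hep3B the ratios of these 7 genes, by their brightest probe sets, lay between 1.01 and 1.24, within the thresholds.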

How the results depend on the processing

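Of 201 alternative values, 14 moved beyond the limits set for them and 2 reversed. Those limits were wide for small values. The limma changes of single genes had no limit on size, only on sign or an adjusted p under 0.05. Leaving out dim genes could not alter the ratios, as no measured gene of the list was dim. Median centring could not alter the branch difference. These counts therefore do not measure stability. The difference between the branches, cholesterol minus fatty acid, ran from -0.12 to 0.0064 in Huh7 and from -0.21 to 0.0085 in Hep3B. It was above 0 in both without _x_at probe sets. The median log2 ratio of the fatty acid enzymes in Hep3B was 0.011 both with the mean and with the median over all probe sets of a gene, against -0.20 with the brightest, and the median of the regulators in Huh7 was -0.72 under both. The cause was not tested. The median over genes of the mean log2 ratio of both lines was -0.27 for the fatty acid enzymes and ranged from -0.52 to -0.20 with a line left out, -0.43 for the cholesterol enzymes with a range from -0.59 to -0.20, and -0.82 for the regulators with a range from -0.90 to -0.64. With thresholds of 1.3 and its inverse, 23 genes in Huh7, 9 in Hep3B and 9 in both lines were below, where 8.59%, 9.06% and 2.05% of all genes were. With thresholds of 2 and 0.5 the counts were 3, 0 and 0, beside 0.47%, 0.91% and 0.0759%. After adding 16 to every value before the ratio, 1 gene was below 0.67 in both lines, against 3. With no replicate block, so that the 2 lines were not paired by the model, limma gave 3 of the 27 genes as lower at an unadjusted p under 0.05, against 12, and 0.678% of all genes. With all probe sets averaged, limma's log2 change was -0.035 for SCD5 against -0.57, -0.28 for SC5D against -0.64 and -0.24 for FASN against -0.79. Over the whole table, limma called 8 genes at an adjusted p under 0.05 without an offset, 9 with an intensity trend in the prior and 3 with dim genes left out, and none of these calls was a gene of the list under any of the 8 alternatives of the fit. With SCD5 left out, chosen after seeing the data, the medians of the fatty acid enzymes were -0.48 and -0.13. Without replicates within a line, the change of a gene cannot be told apart from differences between arrays. This holds for changes near those of the poly-A controls and for larger ones.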
